A study of Homo sapiens with 6 samples.

Results

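The genes described here are the WNT ligands, their frizzled (FZD) receptors, the co-receptors LRP5 and LRP6, and the secreted antagonists of the DKK and SFRP families. They were chosen by gene symbol alone, as WNT followed by a number, FZD followed by a number, DKK1 to DKK4, SFRP1 to SFRP5, LRP5 and LRP6, which matched 39 of the 61267 genes in the deposited table. There were 19 WNT genes, 10 FZD genes, 4 DKK genes, 4 SFRP genes (SFRP1, SFRP2, SFRP4 and SFRP5) and the LRP5 and LRP6 pair. The labels give the source of every library as THP-1 cells, a line of human monocytic leukemia cells. Before RNA was taken, cells of both groups had received PMA, a phorbol ester that turns THP-1 cells into macrophage-like adherent cells, for 48 h at a dose of 100 ng/ml. There were 3 libraries labelled KD and 3 labelled NC. The labels name no target for KD. The title of the series mentions METTL1, a methyltransferase that adds 7-methylguanosine to RNA, together with macrophages and inflammation. Whether libraries of 1 group were grown as separate cultures is not said, and the p-values then reflect only library-to-library spread, which may be technical.

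WNT proteins are secreted, lipid-modified ligands that bind frizzled receptors at the cell surface. In the canonical branch a WNT joins a frizzled to LRP5 or LRP6, the complex that degrades beta-catenin is held back, and beta-catenin acts with TCF and LEF factors on target genes. Other branches signal without beta-catenin, through ROR receptors, calcium or planar cell polarity. SFRP proteins bind WNT itself, while DKK1 and DKK2 bind LRP5 and LRP6. In macrophages WNT5A has been described as an inflammatory ligand that acts through FZD5.

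Total counts per library ran from 37628972 to 42970216. METTL1 held 567, 528 and 524 counts in the KD libraries and 596, 653 and 642 in the NC libraries, a log2 fold change, KD over NC, of -0.10 (SE 0.076, edgeR adjusted p = 0.216), which missed the threshold. With library sizes alone it was -0.29 (edgeR adjusted p = 0.00249), and on the leukocyte scale described below it was -1.30 (edgeR adjusted p = 4.85e-15). KD and NC are therefore used below as the names on the libraries. Levels are CPM, the counts as a share of the library size scaled with TMM, edgeR's trimmed-mean normalization, and calls use the edgeR quasi-likelihood test at a Benjamini-Hochberg adjusted p of 0.05 over all tested genes. The myeloid markers, among them SPI1, CD14 and ITGAM, were present in every library. Their summed level was 1790 to 1822 CPM in KD and 921 to 947 CPM in NC. CD68 was a large part of it, at 868 CPM in KD and 509 CPM in NC. With TMM 9 of 10 passed as higher in KD, beside 36.2% of all tested genes. On the leukocyte scale 1 of the 10 passed as higher and 4 as lower, so that a myeloid excess in KD depends on the scale. Markers of other cell types stood apart between the groups. The 10 neural and embryonal markers summed to 12.9 to 13.5 CPM in KD and 1867 to 2232 CPM in NC. STMN2, SOX2, LIN28B and POU3F3 had no count in any KD library, while all 10 had counts in NC, STMN2 only 8 in NC replicate 2. Of the 9 tested, 8 were lower in KD, beside 40.3% of all tested genes. TUBB3, at 5.04 CPM in KD and 5.31 CPM in NC, did not pass (edgeR adjusted p = 0.588). NEFM, a neurofilament gene that made up most of the NC sum, stood at 0.390 CPM in KD and 1595 CPM in NC. IRS4 stood at 0.169 CPM in KD and 164 CPM in NC. These are not genes that monocytic cells are known for, so the values of the NC libraries go against the label THP-1 in part, and no KD over NC value given here can be taken as a difference within THP-1 cells alone. The 7 epithelial and junction markers summed to 28.4 to 32.9 CPM in KD and 666 to 711 CPM in NC. The 6 fibroblast markers summed to 103.0 to 103.4 CPM in KD and 24.1 to 25.5 CPM in NC, nearly all of it PDGFRA, with LUM at 0 in KD. The 9 lymphoid markers summed to 7.83 to 9.48 CPM in KD and 6.33 to 7.66 CPM in NC, with CD3E at 0 in every library. In bulk RNA, fewer cells of a type and less RNA per cell cannot be told apart.

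**Figure D1:**
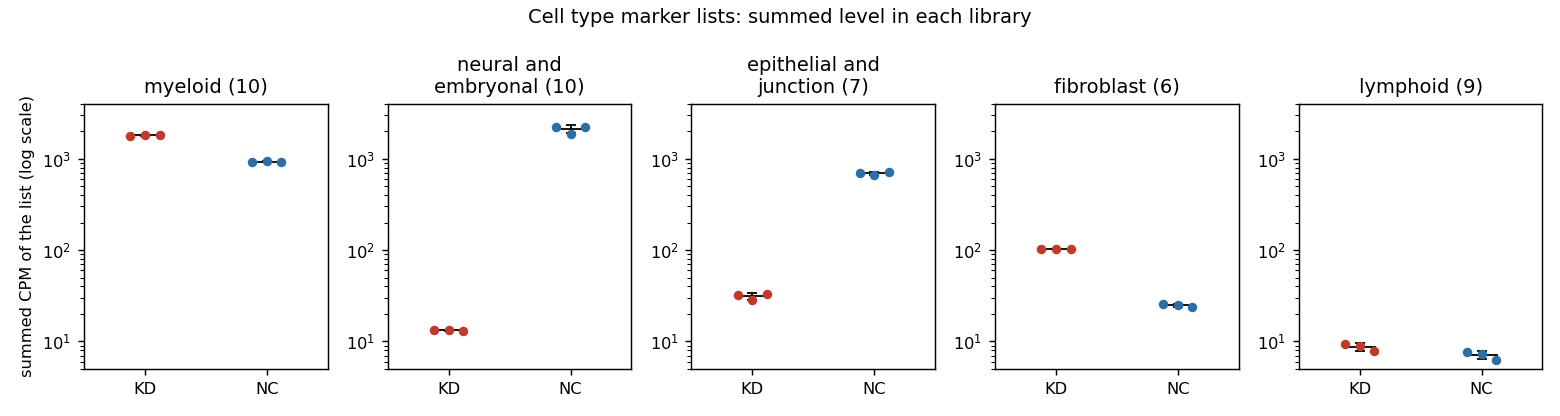
Summed level of 5 cell type marker lists in each library, in CPM on a log scale, for KD (red) and NC (blue). Points are libraries, the bar and whiskers are mean ± SD (n = 3 each), and the number of markers is in brackets. The neural and embryonal sum is 12.9 to 13.5 CPM in KD and 1867 to 2232 CPM in NC, and the myeloid sum is 1790 to 1822 CPM in KD and 921 to 947 CPM in NC.

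Because of these differences a second scale was used beside TMM. It starts from 48 genes restricted to leukocytes and sets the 47 that passed the filter level on median between the libraries. It is called the leukocyte scale here. With TMM, 46 of these 47 genes were higher in KD, with a median log2 fold change of 1.18. On the leukocyte scale the median log2 fold change of all tested genes was -1.24, against -0.05 with TMM and -0.23 with library sizes alone. A negative sign there is thus shared by most genes, with 83.1% of all tested genes lower in KD and 3.55% higher. All members are shifted down by about the same amount, and the 15 members lower with TMM passed as lower there too.

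Of the 39 members, 27 passed the filter on low counts and 12 did not. Of the 27, 21 passed the test (77.8%), beside 76.5% of all tested genes, so that the share called does not set these genes apart. There were 15 lower in KD (55.6%, beside 40.3% of all tested genes) and 6 higher (22.2%, beside 36.2%). The median log2 fold change of the 27 was -0.53, against -0.05 over all tested genes. At least 2-fold lower and past the test were 8 of the 27, beside 22.9% of all tested genes. At least 2-fold higher were 4 of the 27, beside 12.6%. The groups did not overlap in CPM for 19 of the 27 (70.4%), beside 78% of all tested genes. The 15 lower members included both LRP co-receptors, 7 frizzleds and 5 WNT ligands. The 6 higher members were DKK2, DKK1, SFRP1, FZD1, WNT2B and WNT7B. On the leukocyte scale 22 of the 27 were lower, beside 83.1% of all tested genes. DKK2 was the 1 member that passed as higher there, beside 3.55% of all tested genes. Both shares of the members are near those of all tested genes. The filter keeps a gene that is high in 1 group only, so these counts describe the tested members and not all 39.

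**Figure D2:**
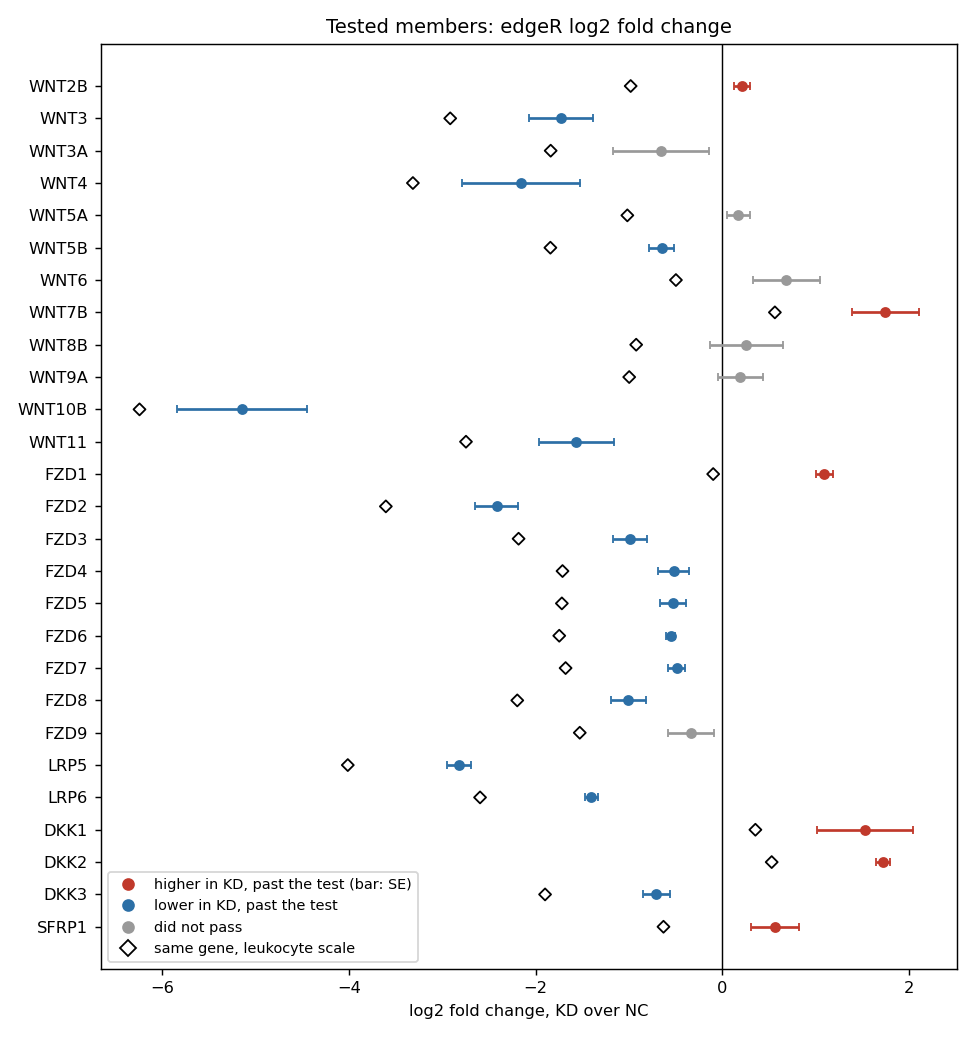
Log2 fold change, KD over NC, of the 27 tested members, by family. Filled circles are TMM values with the SE as whiskers, red for higher in KD, blue for lower in KD and grey for not past the test. Open diamonds are the same genes on the leukocyte scale. LRP5 (-2.82), FZD2 (-2.42) and WNT10B (-5.15) lie far to the left, and with TMM DKK2 (1.72) and WNT7B (1.75) lie farthest to the right.

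The co-receptors showed the largest falls among members above 10 CPM in either group. LRP5 (chromosome 11, 68312591 to 68449275, plus strand, GRCh38), a single-pass receptor that joins frizzled in the canonical branch, held 60, 87 and 68 counts in KD and 550, 560 and 543 in NC. All 3 KD libraries lay far below all 3 NC libraries. The level was 1.82 ± 0.358 CPM in KD and 12.9 ± 0.830 CPM in NC (mean ± SD, n = 3 each, as below), and LRP5 fell by 2.82 on the log2 scale with an SE of 0.125 (edgeR adjusted p = 2.14e-16). Its close relative LRP6 (chromosome 12, 12116025 to 12267044, minus strand) held 441, 374 and 384 counts in KD and 1158, 1048 and 1240 in NC. The groups did not overlap here either. LRP6 stood at 10.2 ± 0.911 CPM in KD and 26.8 ± 1.09 CPM in NC and fell by 1.40 on the log2 scale with an SE of 0.074 (edgeR adjusted p = 6.60e-15). Per length (TPM, counts over exon length as a share of the library), LRP6 was above LRP5 in both groups, at 2.67 ± 0.226 and 0.805 ± 0.158 TPM in KD and at 7.53 ± 0.210 and 6.08 ± 0.461 TPM in NC. The ratio of LRP5 to LRP6 counts within a library, which no scaling between libraries can change, was 0.136, 0.233 and 0.177 in KD and 0.475, 0.534 and 0.438 in NC, so LRP5 was the more reduced of the pair. The epithelial and junction markers, at 28.4 to 32.9 CPM in KD and 666 to 711 CPM in NC, moved the same way, and their part in these falls was not tested.

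Of 10 frizzled genes 9 were tested. Of these, 7 were lower (77.8%, beside 40.3% of all tested genes), 1 was higher (11.1%, beside 36.2%) and 1 did not pass. FZD6 (chromosome 8), known from planar cell polarity, was the most abundant of all 39 members. It held 1384, 1296 and 1285 counts in KD and 2038, 2075 and 2209 in NC. Every KD library was below every NC library, at 33.6 ± 1.38 CPM in KD and 49.3 ± 1.19 CPM in NC, and FZD6 fell by 0.55 on the log2 scale with an SE of 0.050 (edgeR adjusted p = 2.81e-10). FZD7 (chromosome 2, 202033855 to 202038441, plus strand), a receptor of canonical WNT signals in many stem cells, held 298, 268 and 268 counts in KD and 408, 408 and 454 in NC. It fell by 0.49 on the log2 scale with an SE of 0.092 (edgeR adjusted p = 4.38e-05). The FZD7 to FZD6 ratio of counts was 0.215, 0.207 and 0.209 in KD and 0.200, 0.197 and 0.206 in NC, a mean ratio 1.05 times higher in KD.

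FZD2 (chromosome 17, 44557484 to 44561262, plus strand), which can take both canonical and WNT5A signals, showed the largest fall among the frizzleds. Its counts were 21, 25 and 14 in KD and 117, 112 and 121 in NC. The lowest NC library thus held over 4 times the counts of the highest KD library. FZD2 stood at 0.509 ± 0.143 CPM in KD and 2.73 ± 0.049 CPM in NC and fell by 2.42 on the log2 scale with an SE of 0.23 (edgeR adjusted p = 7.86e-10). FZD8 (chromosome 10, 35638247 to 35642296, minus strand), a canonical receptor whose gene has a single exon, held 42, 60 and 58 counts in KD and 114, 104 and 132 in NC and fell by 1.005 on the log2 scale (SE 0.188, edgeR adjusted p = 3.49e-05). A gene on the other strand, with 0, 4 and 7 counts in KD and 5, 6 and 7 in NC, shares 7.85% of the FZD8 exon bases. FZD3 (chromosome 8), needed for axon guidance in mice, held 60, 72 and 62 counts in KD and 120, 167 and 132 in NC and fell by 0.99 (SE 0.182, edgeR adjusted p = 2.82e-05). In both genes the groups were apart. In the same libraries the neural and embryonal markers summed to 12.9 to 13.5 CPM in KD and 1867 to 2232 CPM in NC, and their part in the frizzled falls was not tested.

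FZD5 (chromosome 2, 207762598 to 207769906, minus strand), the receptor linked to WNT5A in macrophages, held 110, 101 and 106 counts in KD and 156, 174 and 166 in NC. It fell by 0.53 on the log2 scale with an SE of 0.143 (edgeR adjusted p = 0.00195). FZD4 (chromosome 11, 86945679 to 86955395, minus strand), the receptor of Norrin in retinal vessels, held 90, 86 and 91 counts in KD and 116, 158 and 142 in NC. It fell by 0.52 with an SE of 0.165 (edgeR adjusted p = 0.00636), a call that was lost without NC replicate 2 (-0.39, edgeR adjusted p = 0.0584). Of its exon bases, 18.9% also lie in exons of PRSS23 on the other strand, which stood at 5.14 CPM in KD and 5.18 CPM in NC. How strand was used in counting is not stated, so reads there cannot be assigned. FZD9 (chromosome 7, 73433778 to 73436120, plus strand) held 32, 38 and 42 counts in KD and 42, 52 and 60 in NC. Its groups overlapped and its log2 fold change of -0.34 (SE 0.245) did not pass (edgeR adjusted p = 0.215).

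FZD1 was the frizzled that went the other way with TMM. This canonical receptor (chromosome 7, 91264433 to 91271326, plus strand) held 718, 689 and 638 counts in KD and 380, 340 and 318 in NC. The groups did not overlap, and the level was 17.3 ± 1.06 CPM in KD and 8.12 ± 0.999 CPM in NC. FZD1 rose by 1.10 on the log2 scale with an SE of 0.089 with TMM (edgeR adjusted p = 3.97e-11), while on the leukocyte scale its log2 fold change was -0.10 and did not pass (edgeR adjusted p = 0.325). Within libraries, the FZD1 to FZD6 ratio of counts was 0.519, 0.532 and 0.497 in KD and 0.187, 0.164 and 0.144 in NC. FZD1 thus took a larger part of the frizzled RNA in every KD library. Per length, FZD1 ranked second among frizzleds in KD, at 6.86 ± 0.368 TPM behind FZD6 at 22.6 ± 0.784 TPM. In NC the order was FZD6 (35.3 ± 1.31 TPM), FZD7 (6.28 ± 0.159 TPM) and FZD1 (3.43 ± 0.433 TPM), with no overlap between these neighbours. FZD10, with 0, 0 and 2 counts in KD and 2, 4 and 8 in NC, was not tested. Its ratio, NC over KD, was 6.44, with a 95% interval of 1.48 to 58.4 from counting error alone.

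Among the antagonists DKK2 carried most of the signal. DKK2 (chromosome 4, 106921802 to 107283806, minus strand) encodes a secreted protein that binds LRP5 and LRP6. It held 1222, 1289 and 1154 counts in KD and 360, 426 and 420 in NC. The lowest KD library held over 2 times the counts of the highest NC library, and the level was 31.1 ± 1.83 CPM in KD and 9.41 ± 0.932 CPM in NC. DKK2 rose by 1.72 on the log2 scale with an SE of 0.075 (edgeR adjusted p = 1.55e-16), and by 0.53 on the leukocyte scale (edgeR adjusted p = 5.95e-07). In KD, DKK2 made up 92.9% of the summed DKK TPM, against 78.6% in NC. Against its own receptor, the ratio of DKK2 to LRP6 counts was 2.77, 3.45 and 3.00 in KD and 0.311, 0.407 and 0.339 in NC. The mean ratio was 8.73 times higher in KD. The fibroblast marker PDGFRA stood at 101 CPM in KD and 21.8 CPM in NC, a direction shared with DKK2. COL1A1, the other tested fibroblast marker, went the other way, at 1.76 CPM in KD and 2.61 CPM in NC (log2 fold change -0.56, edgeR adjusted p = 0.00499), and COL1A2, COL3A1, DCN and LUM averaged under 0.2 CPM in both groups, and the part of this list in the DKK2 rise was not tested.

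DKK1 (chromosome 10, 52314281 to 52318042, plus strand), the best known LRP5 and LRP6 inhibitor and itself a target of beta-catenin, was scarce. Its counts were 20, 24 and 10 in KD and 12, 4 and 4 in NC, and the groups overlapped. Its log2 fold change of 1.53 (SE 0.513) passed with TMM (edgeR adjusted p = 0.0093) but not on the leukocyte scale (0.36, edgeR adjusted p = 0.525), without KD replicate 2 (1.28, edgeR adjusted p = 0.0676) or without NC replicate 3 (1.24, edgeR adjusted p = 0.0578). With the counts divided by 2, or with a mean of 1 CPM required, DKK1 was below the filter and was not tested. Of its exon bases 10.2% are shared with the antisense gene PRKG1-AS1. DKK3 (chromosome 11, 11956207 to 12009769, minus strand) is a divergent relative of the other DKK genes. It held 190, 149 and 113 counts in KD and 248, 268 and 286 in NC, without overlap, and fell by 0.71 on the log2 scale (SE 0.143, edgeR adjusted p = 9.45e-05). However, 47.5% of the DKK3 exon bases lie in exons of USP47 on the other strand, a gene at 202 CPM in KD and 177 CPM in NC, so the DKK3 counts are uncertain. DKK4 had 2 counts in KD replicate 2 and none elsewhere.

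SFRP1 (chromosome 8), which binds WNT proteins outside the cell, held 56, 48 and 86 counts in KD and 38, 36 and 66 in NC. The groups overlapped, and in both the library labelled replicate 3 was the highest. Its log2 fold change of 0.57 (SE 0.258) was just past the threshold (edgeR adjusted p = 0.04996). The call was lost with library sizes alone (0.38, edgeR adjusted p = 0.186), without genes averaging under 1 CPM (0.54, edgeR adjusted p = 0.0558), with DESeq2 (0.57, DESeq2 adjusted p = 0.0788) and with limma-voom (limma adjusted p = 0.0654). It was also lost without KD replicate 3 (0.29, edgeR adjusted p = 0.350), NC replicate 1 (0.44, edgeR adjusted p = 0.174) or NC replicate 2 (0.43, edgeR adjusted p = 0.171), and its sign turned on the leukocyte scale (-0.63, edgeR adjusted p = 0.0262). SFRP2 had 10, 16 and 8 counts in KD and 12, 5 and 4 in NC. SFRP4 had no count in KD and 4, 8 and 4 in NC, which makes it at least 4.91-fold lower in KD when the KD group is set at 3 counts. SFRP5 had 2 counts in NC replicate 3 and none elsewhere. None of SFRP2, SFRP4 and SFRP5 passed the filter.

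Of the 19 WNT ligands 12 were tested, with 2 higher (16.7%, beside 36.2% of all tested genes), 5 lower (41.7%, beside 40.3%) and 5 not past the test. The share of ligands called was 58.3%, below the 76.5% of all tested genes. Their median log2 fold change was -0.24. The most abundant per length were WNT2B, WNT5B and WNT5A in both groups. In KD they stood at 2.58 ± 0.165, 2.07 ± 0.229 and 2.01 ± 0.179 TPM, where WNT5B and WNT5A overlapped. In NC they stood at 2.36 ± 0.0812, 3.47 ± 0.301 and 1.90 ± 0.244 TPM, with WNT5B the highest and no overlap between neighbours.

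WNT5B (chromosome 12, 1529891 to 1647212, plus strand), a ligand of beta-catenin-independent signals, held 118, 120 and 142 counts in KD and 221, 218 and 208 in NC. The groups were apart, and WNT5B fell by 0.65 on the log2 scale with an SE of 0.132 (edgeR adjusted p = 1.03e-04). Its paralog WNT5A (chromosome 3, 55465715 to 55490539, minus strand), the ligand tied to macrophage inflammation, held 191, 226 and 204 counts in KD and 218, 197 and 182 in NC. The WNT5A groups overlapped, and its log2 fold change of 0.17 with an SE of 0.126 did not pass (edgeR adjusted p = 0.210). WNT5A was at -0.01 with library sizes alone, and at -1.02 on the leukocyte scale (edgeR adjusted p = 3.35e-08). Within libraries the ratio of WNT5A to WNT5B counts was 1.62, 1.88 and 1.44 in KD and 0.986, 0.904 and 0.875 in NC, higher in each KD library than in each NC library.

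WNT2B (chromosome 1, 112466541 to 112530165, plus strand), a canonical ligand, held 450, 437 and 490 counts in KD and 437, 390 and 465 in NC. Its log2 fold change of 0.21 (SE 0.084) passed with TMM (edgeR adjusted p = 0.0244). It did not pass with library sizes alone (0.03, edgeR adjusted p = 0.785), without KD replicate 3 (0.17, edgeR adjusted p = 0.102) or without NC replicate 2 (0.17, edgeR adjusted p = 0.106), and was -0.98 on the leukocyte scale (edgeR adjusted p = 3.42e-11). ST7L on the other strand, which covers 21.5% of the WNT2B exon bases, stood at 37.6 CPM in KD and 27.6 CPM in NC, so part of the WNT2B reads cannot be assigned.

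WNT10B (chromosome 12, 48965340 to 48971735, minus strand), a canonical ligand studied in bone and fat, showed the largest fall of all tested members. It held 0, 2 and 0 counts in KD and 33, 35 and 22 in NC. The ratio, NC over KD, was 41.4, with a 95% interval of 11.1 to 347 that covers counting error only. The fitted log2 fold change of WNT10B, -5.15 (SE 0.696), passed the test (edgeR adjusted p = 3.38e-07). Without KD replicate 2, which holds the only KD counts, the fitted value was -7.87. WNT3 (chromosome 17, 46762506 to 46833154, minus strand), a canonical ligand, held 17, 15 and 6 counts in KD and 44, 44 and 50 in NC and fell by 1.73 (SE 0.345, edgeR adjusted p = 7.89e-05). WNT11 (chromosome 11, 76186325 to 76210736, minus strand), a ligand of polarity and cell movement in embryos, held 8, 10 and 6 counts in KD and 26, 24 and 28 in NC and fell by 1.57 (SE 0.401, edgeR adjusted p = 0.00112). A gene without a symbol on the other strand shares 8.6% of the WNT11 exon bases. That gene had no count in KD and 8, 2 and 2 in NC, so some WNT11 reads cannot be assigned. WNT4 (chromosome 1, 22117313 to 22143969, minus strand), needed for kidney tubule formation in mice, held 0, 4 and 4 counts in KD and 13 or 14 in each NC library and fell by 2.15 (SE 0.634, edgeR adjusted p = 0.00368). With the counts divided by 2, WNT4 was below the filter and was not tested. In each of these 4 ligands all KD libraries lay below all NC libraries. The neural and embryonal marker sum was at most 13.5 CPM in KD and at least 1867 CPM in NC, and its part in these falls was not tested.

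WNT7B (chromosome 22, 45920366 to 45977162, minus strand), a ligand that macrophages release in the eye of mice, was the ligand with the largest rise with TMM. It held 30, 36 and 40 counts in KD and 8, 12 and 14 in NC. The groups were apart, at 0.898 ± 0.127 CPM in KD and 0.264 ± 0.0650 CPM in NC. It rose by 1.75 on the log2 scale (SE 0.354, edgeR adjusted p = 9.37e-05) and was at 0.57, without passing, on the leukocyte scale (edgeR adjusted p = 0.147). With TMM the myeloid markers, at 1790 to 1822 CPM in KD and 921 to 947 CPM in NC, moved the same way as WNT7B, FZD1 and DKK2. On the leukocyte scale 1 of the 10 markers was higher and 4 were lower, and FZD1 was at -0.10. The part of these markers in the rises was not tested.

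WNT9A, WNT3A, WNT6 and WNT8B had overlapping groups and did not pass. WNT9A (chromosome 1, 227918656 to 227947932, minus strand) held 52, 52 and 85 counts in KD and 76, 50 and 53 in NC (log2 fold change 0.20, SE 0.239, edgeR adjusted p = 0.460), with 1 library of each group above the rest. Its value was -0.07 without KD replicate 3 and -0.996 on the leukocyte scale. WNT6 held 20, 36 and 26 counts in KD and 22, 20 and 13 in NC, and its log2 fold change of 0.69 (SE 0.359) passed in 1 of the settings run, without KD replicate 1 (0.88, edgeR adjusted p = 0.0459). WNT3A, the ligand most used to switch on beta-catenin in culture, held 13, 4 and 5 counts in KD and 15, 9 and 14 in NC. WNT8B held 19, 20 and 13 counts in KD and 16, 18 and 13 in NC. The remaining 7 WNT genes, WNT1, WNT2, WNT7A, WNT8A, WNT9B, WNT10A and WNT16, held 0 to 11 counts in any library and were not tested. WNT16, known from haematopoietic development in zebrafish, reached 11 of these in NC replicate 2, against 0, 2 and 6 in KD. WNT2, WNT9B and WNT10A had no count in any KD library, and WNT1 had none in any NC library.

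**Figure D3:**
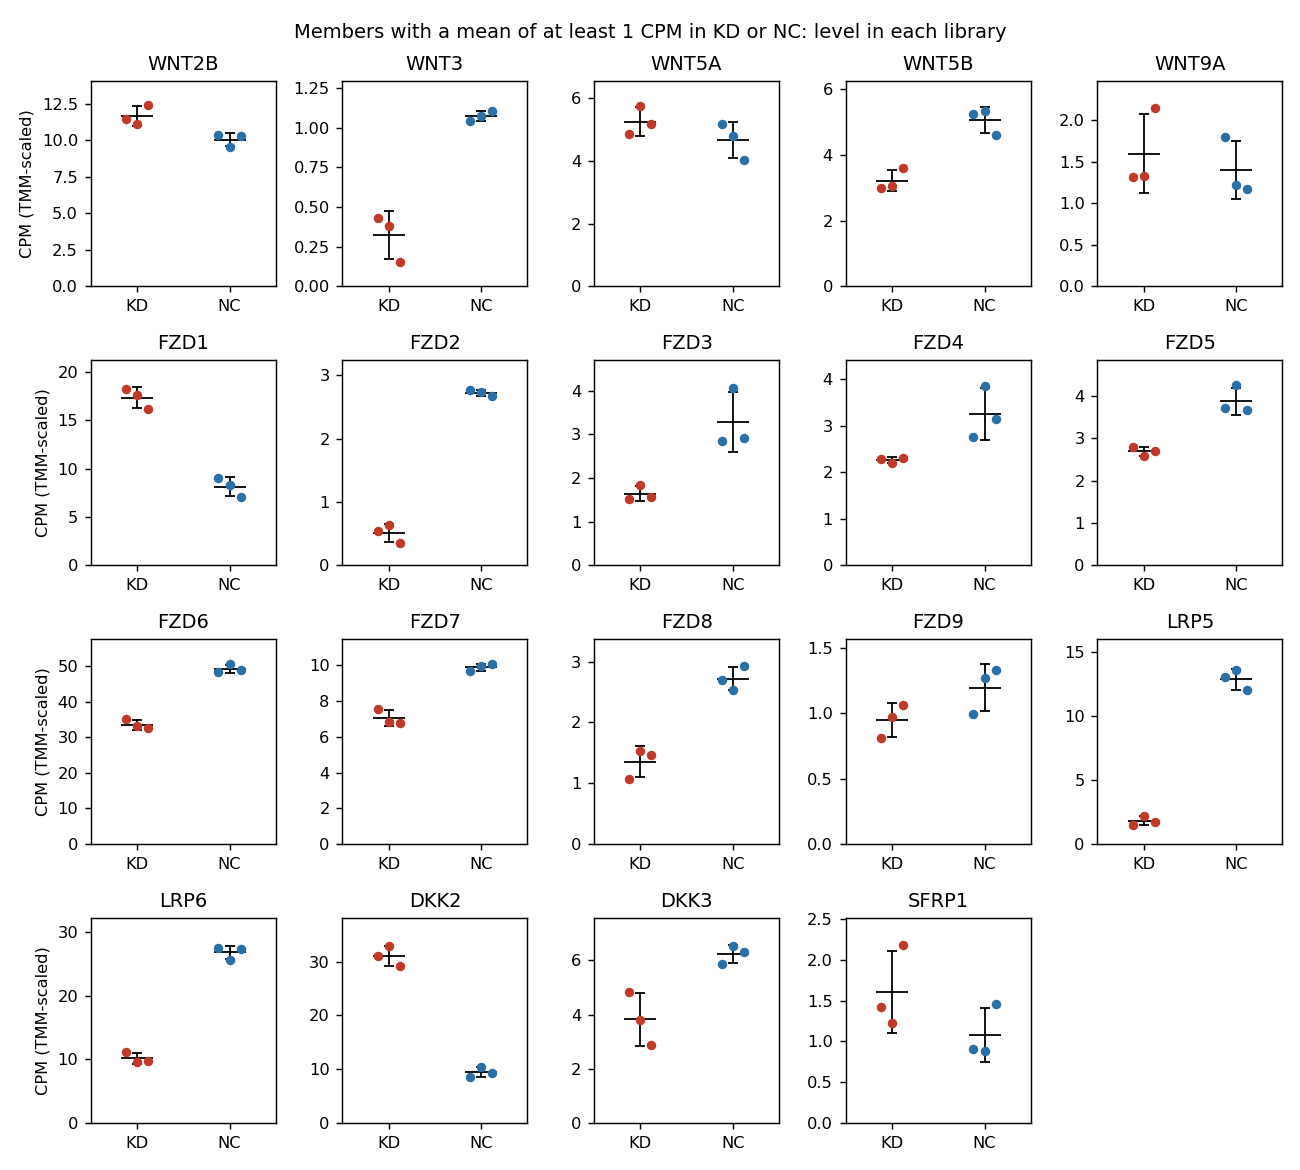
Level of the 19 members with a mean of at least 1 CPM in KD or NC, in TMM-scaled CPM on linear axes that start at 0, with KD left of NC. Points are libraries, the bar and whiskers are mean ± SD (n = 3 each). DKK2 is at 31.1 CPM in KD and 9.41 CPM in NC and LRP5 at 1.82 CPM in KD and 12.9 CPM in NC, with all libraries apart, whereas WNT5A, WNT9A, FZD9 and SFRP1 overlap.

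The summed level of each family shows which genes make up the receptor and antagonist RNA. LRP5 and LRP6 together stood at 3.48 ± 0.124 TPM in KD and 13.6 ± 0.316 TPM in NC. The 4 DKK genes stood at 21.04 ± 1.45 TPM in KD and 8.05 ± 0.696 TPM in NC, so that DKK RNA was above co-receptor RNA in each KD library and below it in each NC library. The frizzled sum was 38.2 ± 1.03 TPM in KD and 54.2 ± 2.10 TPM in NC, of which FZD6 made up 59.0% in KD and 65.1% in NC. The 19 WNT ligands summed to 10.7 ± 0.780 TPM in KD and 13.0 ± 1.23 TPM in NC, and the 4 SFRP genes to 1.32 ± 0.201 TPM in KD and 1.03 ± 0.133 TPM in NC. The groups were apart in the LRP, DKK, FZD and WNT sums, whereas the lowest KD library (1.161 TPM) and the highest NC library (1.159 TPM) nearly met in the SFRP sum. These sums are dominated by few genes and no test was made on them.

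**Figure D4:**
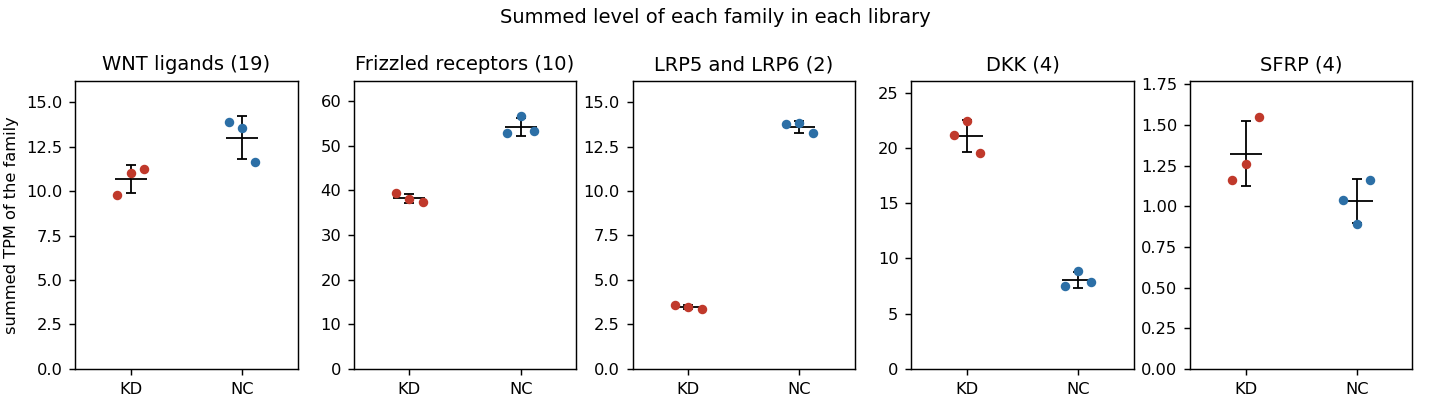
Summed TPM of the members of each family in each library, on linear axes that start at 0, with KD left of NC and the number of genes in brackets. Points are libraries, the bar and whiskers are mean ± SD (n = 3 each). The DKK sum is 21.04 TPM in KD and 8.05 TPM in NC, while the LRP5 and LRP6 sum is 3.48 TPM in KD and 13.6 TPM in NC.

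The bases just upstream of the start sites were read for members found in the RefSeq promoter table (GRCh38.p14), which gave 29 windows of 250 bases for 26 of the 39 members. The core of TCF and LEF binding sites, CTTTGA or its reverse complement TCAAAG, occurred in 1 of the 29 windows, that of DKK1, and in 11.2% of all 35116 windows in the table. The GC box, GGGCGG or CCGCCC, occurred in 24 of the 29 (82.8%) and in 42.6% of all windows. In no window of a member did a match of one motif overlap a match of the other. The member windows held a median of 24 CpG dinucleotides, against 11 in all windows. Shown are DKK1, for its pair of TCF and LEF cores, and FZD1 and LRP5, the members in the table with the most counts among the higher and with the largest fall among members over 1 CPM. Capitals mark matches to either motif, and each line runs 5′ to 3′ on the plus strand and ends 1 base before the start site, at chr10:52314031-52314280 for DKK1, chr7:91264183-91264432 for FZD1 and chr11:68312341-68312590 for LRP5.
DKK1: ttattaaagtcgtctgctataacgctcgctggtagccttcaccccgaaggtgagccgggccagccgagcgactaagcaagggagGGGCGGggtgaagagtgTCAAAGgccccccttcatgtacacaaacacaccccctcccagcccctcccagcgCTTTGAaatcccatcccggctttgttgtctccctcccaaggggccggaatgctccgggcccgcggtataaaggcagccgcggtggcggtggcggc
FZD1: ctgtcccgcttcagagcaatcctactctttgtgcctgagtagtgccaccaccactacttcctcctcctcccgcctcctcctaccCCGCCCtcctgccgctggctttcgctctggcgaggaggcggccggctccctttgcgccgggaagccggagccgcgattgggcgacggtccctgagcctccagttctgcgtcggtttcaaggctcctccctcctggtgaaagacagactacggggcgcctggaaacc
LRP5: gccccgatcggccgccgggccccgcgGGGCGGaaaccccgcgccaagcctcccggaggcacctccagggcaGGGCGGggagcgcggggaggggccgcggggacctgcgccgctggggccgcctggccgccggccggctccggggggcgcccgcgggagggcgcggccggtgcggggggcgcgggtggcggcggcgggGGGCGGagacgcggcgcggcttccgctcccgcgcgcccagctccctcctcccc
The DKK1 cores begin 149 and 95 bases before the start site and its GC box 166 bases before it. The LRP5 window holds 43 CpG dinucleotides, the FZD1 window 19 and the DKK1 window 18. A match is a run of letters and says nothing about binding in these cells.

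Other genes of the pathway were taken from 8 lists of 73 genes in all. Of these, 65 were tested, and 18 were higher, 37 lower and 10 not past the test, with a median log2 fold change of -0.52, against -0.05 over all tested genes. Of all tested genes 76.5% passed, 36.2% as higher and 40.3% as lower. On the leukocyte scale 2 of the pathway genes were higher and 60 lower, beside 3.55% and 83.1% of all tested genes. WLS, which carries WNT proteins to the cell surface, held 342, 305 and 375 counts in KD and 1502, 1695 and 1616 in NC and fell by 2.12 on the log2 scale (SE 0.078, edgeR adjusted p = 4.96e-18). PORCN, the enzyme that attaches the lipid to WNT, fell by 0.74 (SE 0.183). Among the other WNT receptors 3 of 4 were lower. PTK7, a polarity receptor, held 12, 13 and 20 counts in KD and 1176, 1136 and 1199 in NC (log2 fold change -6.16, SE 0.130). ROR1 and ROR2, receptors of WNT5A, were at -1.90 (SE 0.178) and -0.65 (SE 0.281), and the ROR2 call was lost under the replicate block (-0.65, edgeR adjusted p = 0.062), with no filter, with DESeq2, and without KD replicate 1 or 2 or NC replicate 1 or 3. RYK, at 14.0 ± 0.210 CPM in KD and 13.9 ± 0.342 CPM in NC, did not pass.

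Of 11 tested beta-catenin target genes, which report on the canonical branch in many tissues, 7 were lower, 3 were higher and 1 did not pass, beside 40.3% lower and 36.2% higher of all tested genes. AXIN2, the target most used as a readout, held 26, 30 and 28 counts in KD and 178, 190 and 238 in NC and fell by 2.72 on the log2 scale (SE 0.185, edgeR adjusted p = 1.15e-12). LEF1 fell by 3.16 (SE 0.098) and TCF7 fell by 2.36 (SE 0.142). These genes also encode factors of the pathway. The lower targets AXIN2, LEF1, TCF7, NKD1, RNF43 and ZNRF3 also stand in other pathway lists used here. Among the lower targets only TNFRSF19 does not, so the target list is not separate from the others. The cell cycle gene CCND1, by contrast, stood at 605 ± 35.4 CPM in KD and 238 ± 11.95 CPM in NC and rose by 1.35 (SE 0.048), and by 0.15 on the leukocyte scale. MYC and TBX3, the other higher targets, rose by 0.31 (SE 0.050) and 0.29 (SE 0.064) with TMM. They were at -0.88 and -0.91 on the leukocyte scale. In the R-spondin group, which acts on the turnover of frizzleds, 1 of 7 tested genes was higher and 2 were lower. RSPO3, a secreted enhancer of WNT signals, held 184, 181 and 178 counts in KD and 54, 41 and 60 in NC and rose by 1.93 (SE 0.166), and by 0.74 on the leukocyte scale. Of the ligases that remove frizzleds from the cell surface, RNF43 fell by 4.22 (SE 0.348) and ZNRF3 fell by 1.56 (SE 0.148). RSPO2, at 24, 8 and 24 counts in KD and 0, 10 and 18 in NC, did not pass (log2 fold change 1.118, edgeR adjusted p = 0.122). It passed as higher with no filter (1.11, edgeR adjusted p = 0.0486), with limma-voom (2.00, limma adjusted p = 0.0471), without KD replicate 2 (1.48, edgeR adjusted p = 0.0393) and without NC replicate 3 (1.95, edgeR adjusted p = 0.0271), and was at -0.070 on the leukocyte scale.

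Of the 19 tested genes of the destruction complex and Dishevelled group 8 were higher and 10 lower, a split near that of all tested genes (36.2% higher and 40.3% lower). GSK3B, the kinase that marks beta-catenin for degradation, stood at 73.1 ± 0.586 CPM in KD and 41.5 ± 0.916 CPM in NC and rose by 0.82 (SE 0.044) with TMM, with -0.38 on the leukocyte scale. The kinase CSNK1E fell by 1.40 (SE 0.047), the scaffold AMER1 fell by 1.72 (SE 0.097) and the Dishevelled inhibitor NKD2 fell by 4.36 (SE 0.252). Among TCF, LEF and nuclear partners 3 were higher and 7 lower of 12. TCF7L2 rose by 0.90 (SE 0.059) and BCL9L by 1.29 (SE 0.045) with TMM, against -0.30 and 0.09 on the leukocyte scale. Planar cell polarity genes had 2 higher and 8 lower of 12. VANGL2, a core polarity protein, held 6, 2 and 5 counts in KD and 236, 176 and 217 in NC (log2 fold change -5.44, SE 0.276). DAAM2 fell by 3.73 (SE 0.215) and VANGL1 fell by 1.003 (SE 0.097), while DAAM1 rose by 0.79 (SE 0.055) with TMM and was at -0.40 on the leukocyte scale. Of 5 tested genes among the other antagonists 1 was higher and 4 lower. KREMEN1, a receptor that works with DKK proteins, rose by 0.59 (SE 0.057) with TMM and was at -0.61 on the leukocyte scale. KREMEN2 fell by 0.93 (SE 0.195) and TPBG fell by 0.47 (SE 0.087), and SOSTDC1 had no count in KD and 10, 12 and 12 in NC. The marker sums given above also differed between the groups. The neural and embryonal sum was 12.9 to 13.5 CPM in KD and 1867 to 2232 CPM in NC. The part of the marker lists in these values was not tested.

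**Figure D5:**
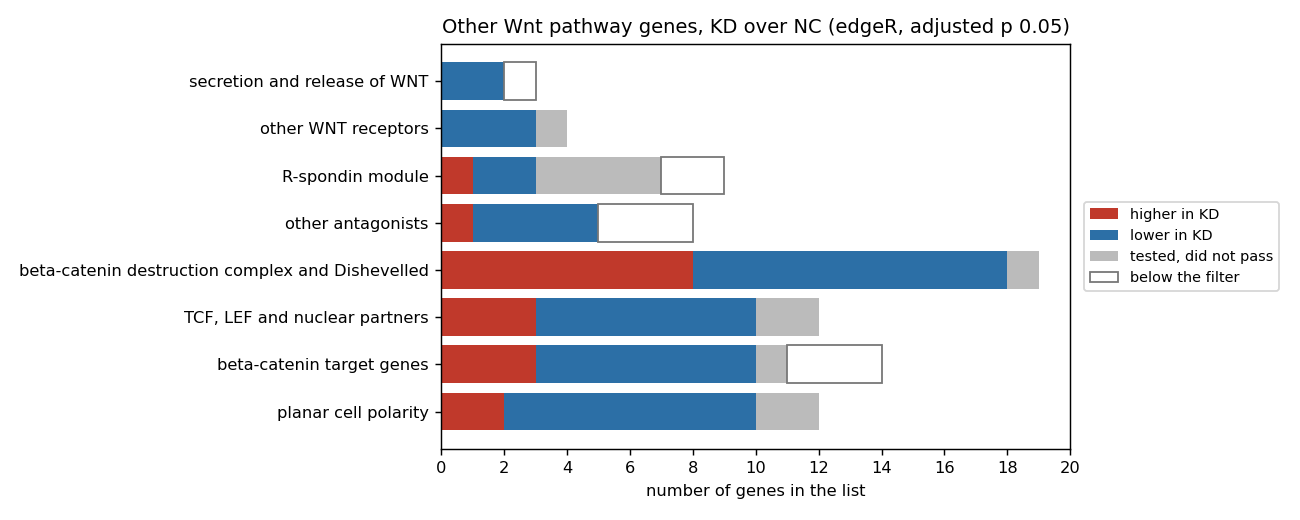
Number of genes of 8 Wnt pathway lists that were higher in KD (red), lower in KD (blue), tested without passing (grey) or below the filter on low counts (white), at an edgeR adjusted p of 0.05 with TMM. Some genes stand in several lists. The destruction complex and Dishevelled list has 8 higher and 10 lower of 19, while the beta-catenin targets have 3 higher and 7 lower of 11 tested.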

How the data were processed

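RNA was taken with Vezol reagent and run on a DNBSEQ-T7 instrument, per the labels' protocols. The submitters' processing notes name fastp 0.23.0 and GRCh38. No aligner, counter, annotation or strand setting is stated. The deposited table holds raw whole-number counts per gene and the exon length of each gene. All columns of values were used. Replicates of a group were never identical, with a chi-square per degree of freedom from 3.24 to 6.46. Small counts were mostly even (67.8% to 70.3% at 1 to 20 counts, 50.2% to 51.4% over 1000), so if read pairs gave 2 counts, intervals on small counts are too narrow and bounds too high.

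KD was set against NC with the robust quasi-likelihood test of edgeR 4.0.16 (R 4.3.3), with TMM and filterByExpr. This left 21905 genes, and the two-sided p-values were Benjamini-Hochberg adjusted over all of them. An SE is the size of the log2 fold change over the root of its F. TPM used the deposited exon lengths. Count ratios carry exact binomial 95% intervals, and bounds take 3 counts over the group. Both cover counting error only. Other settings replaced TMM by DESeq2 size factors, by library sizes alone or by the leukocyte scale, dropped the filter, asked for a mean of 1 CPM, used DESeq2 1.42.0 or limma-voom (limma 3.58.1), divided the counts by 2, blocked on the replicate number or left out 1 library at a time. The fits were tested on simulated data in which only better expressed genes were changed, so that test does not cover members with few counts. All members are accounted for, those averaging at least 1 CPM in a group with all values, and at most 4 genes with the smallest p are named per pathway list. Values of members under 1 CPM, the within-library ratios and the promoters shown were chosen after values were seen. The members and all lists were chosen with earlier results of these data known. Figures were drawn with Python 3.11.15 and matplotlib 3.10.9.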

Additional observations from a re-analysis of the deposited data

How the results depend on the processing

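Beside leaving out libraries, 9 other settings were run. On the leukocyte scale 1 member was higher and 22 were lower (against 6 and 15 with TMM), of the other pathway genes 2 were higher and 60 lower (against 18 and 37), and of all tested genes 777 were higher and 18195 lower (against 7934 and 8824). Requiring a mean of 1 CPM left 18 members tested, of which 3 were higher. Nearly all the leukocyte genes were higher in KD with TMM, so setting them level moved the log2 fold changes down. Signs turned on the leukocyte scale for WNT2B (-0.98), WNT9A (-0.996), WNT8B (-0.92), WNT6 (-0.50), WNT5A (-1.02), FZD1 (-0.10), SFRP1 (-0.63), DAAM1 (-0.40), GSK3B (-0.38), KREMEN1 (-0.61), RSPO2 (-0.070), RYK (-1.18) and TCF7L2 (-0.30). With library sizes alone 37.5% of all calls were higher, against 47.3% with TMM, and WNT5A was at -0.013 and RYK at -0.17. RYK was at -0.0085 with a mean of at least 1 CPM. The causes were not tested. Leaving out single libraries gave 4 to 7 members higher and 14 to 15 lower, 18 to 20 pathway genes higher and 34 to 37 lower, and 7618 to 7787 of all genes higher and 8667 to 8874 lower. WNT9A ran from -0.070 to 0.41 and RYK from -0.0058 to 0.033 there. With the replicate block 6 members were higher and 15 lower, with no member's call changed. Same-numbered libraries correlated at -0.0138 to 0.0153 in their deviations from the group means, and 2 of 6 correlated best with their own number, so the numbers do not pair the libraries. Depth limits the 12 untested members, none above 16 counts in a library.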

Other observations

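Several WNT genes lie as neighbours in the genome. WNT10B and WNT1 are 6.6 kb apart on chromosome 12, and WNT10B held 0, 2 and 0 counts in KD and 33, 35 and 22 in NC, whereas WNT1 held 0, 0 and 2 in KD and none in NC. WNT6 and WNT10A are also 6.6 kb apart, on chromosome 2, and WNT6 held 20, 36 and 26 counts in KD and 22, 20 and 13 in NC, whereas WNT10A held none in KD and 2, 0 and 0 in NC. WNT9A and WNT3A lie 59.1 kb apart on chromosome 1 and neither passed the test. WNT3 and WNT9B on chromosome 17 lie 46 bases apart on opposite strands by the outermost ends of the deposited gene models, and WNT9B held none in KD and 4, 0 and 0 counts in NC beside 6 to 17 counts of WNT3 in KD and 44 to 50 in NC.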
